A study of Homo sapiens with 6 samples.

Results

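The genes described here are the BCL2 family, the caspases and their cofactors, the inhibitor of apoptosis proteins, and the death and TNF receptors with their adaptors. The list names 36 genes, matched to the count table by Ensembl identifier, and 35 of its 18798 genes were found. BOK, a multidomain pro-death BCL2 protein, was the gene not found, and so it was not analysed here. DIABLO had too few counts for a test, so 34 genes were tested.

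The 6 RNA-seq libraries came from U937, a human monocytic line in long-standing use, grown under geneticin selection. The Control group was 3 lines transduced with control plasmids. The ΔNSPs group was 3 independent clones depleted of CTSG, ELANE and PRTN3 at once. These encode cathepsin G, neutrophil elastase and proteinase 3, the serine proteases of myeloid granules. Each ΔNSPs library is 1 clone, so within a library the features of that clone and the effects of the depletion cannot be told apart.

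Apoptosis runs along 2 routes. In the mitochondrial route, pro-survival BCL2 proteins hold BAX and BAK1 in check, and BH3-only proteins such as BIM, PUMA and BIK relieve that hold. Cytochrome c then leaves the mitochondria and joins APAF1 and caspase 9. In the receptor route, FAS, the TRAIL receptor encoded by TNFRSF10B and the TNF receptor encoded by TNFRSF1A recruit FADD or TRADD, and caspase 8 is activated unless CFLAR blocks it. Both routes end in executioner caspases, which the inhibitor of apoptosis proteins restrain. Myeloid cells are known to depend on MCL1 for survival.

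Library totals ran from 11476619 to 13782854 counts. A floor of 3 counts stood at 0.214 to 0.26 CPM (counts divided by the scaled library total, the unit used throughout), for counting error only. CTSG lay at 1897 to 2756 CPM in Control and 45.3 to 136 CPM in ΔNSPs, ELANE at 971 to 1327 CPM against 1.89 to 41.9 CPM, and PRTN3 at 147 to 539 CPM against 0.857 to 63.3 CPM. All 12 myeloid markers had counts, with summed levels of 1100.5 to 1165 CPM in Control and 1025 to 1460.1 CPM in ΔNSPs. CD68 stayed at or under 1.14 CPM. SPI1, CSF1R, LYZ, ITGAM, TYROBP, FCER1G and AIF1 were highest in clones 2 and 3. CEBPA, CD33 and FCGR1A were lowest in clone 3, and CD4 was highest in clone 2 and lowest in clone 1. Summed markers of other cells were 0.597 to 0.725 CPM in Control and 1.28 to 4.22 CPM in ΔNSPs for T cells, 38.4 to 69.5 and 25.2 to 59.3 CPM for B cells, 97.3 to 171 and 105 to 149 CPM for erythroid cells, and 5.44 to 5.79 and 0.928 to 8.72 CPM for epithelial cells and fibroblasts. Their part in the results was not tested. Libraries also differed within groups. On the first principal component of the within-group differences, which held 47% of their variance, Control replicate 1 and ΔNSPs clones 2 and 3 lay on one side (0.33, 0.47 and 0.27) and Control replicates 2 and 3 and clone 1 on the other (-0.17, -0.17 and -0.74). A fit with this component as a covariate is given beside the results. The component was taken from these same libraries after the group means were removed, so the fit lowers the within-group spread. Its calls are therefore not independent support. Windows of 20 Mb were also compared with the Control mean. A median log2 shift of 0.3 or more was found in 0 of 146 windows in each Control line and in clone 1, in 23 (15.8%) in clone 2 and in 16 (11%) in clone 3. Each Control line is part of the Control mean, which makes its own shifts smaller. The counts of the Control lines are therefore not directly comparable with those of the clones.

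Across the 34 tested genes, the smallest edgeR p-values belonged to the pro-death genes BIK, BAX, CYCS and CASP8. Their levels were higher in ΔNSPs by factors of 1.84, 1.4, 1.27 and 1.22. In DESeq2, TNFRSF10B, which was lower in ΔNSPs, had a smaller unadjusted p (0.0481, adjusted 0.266) than CASP8 (0.0625, adjusted 0.304). In edgeR, 0 of the 34 passed an adjusted p of 0.05, where 0.0203% of all tested genes passed (0.00676% higher and 0.0135% lower). Before adjustment, 4 of the 34 had p under 0.05 and all 4 were higher (11.8%). The share of all tested genes was 17.8%, with 9.23% higher and 8.6% lower. DESeq2 called 1 of the 34, BIK, as higher, where it called 3.98% of the 12944 genes with a DESeq2 adjusted p (1.91% higher and 2.07% lower). The groups did not overlap for 12 of the 34, with 10 higher and 2 lower, beside 23.9% of all tested genes (12.2% higher and 11.7% lower). In bulk RNA, fewer cells of a kind and less RNA per cell cannot be told apart. The median log2 fold change (ΔNSPs minus Control) was 0.066 over the 34 and 0.0023 over all genes, and the median size of change was 0.17 against 0.22. Of the depleted genes, CTSG passed in edgeR (adjusted p = 0.0215). ELANE (log2 fold change -5.56, edgeR adjusted p = 0.145) and PRTN3 (-2.96, edgeR adjusted p = 0.217) did not. In DESeq2 ELANE passed (adjusted p = 4.36e-05) and PRTN3 did not (adjusted p = 0.21). Missing the threshold therefore does not show that a gene was unchanged.

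Some fits gave other counts. With the first principal component as a covariate, edgeR called BIK and BAX, 2 of 34, beside 5.41% of all genes, and 7 of 34 had an unadjusted p under 0.05, beside 25%. Without clone 1, BIK alone was called of 35 genes, beside 6.17% of all genes, and 7 had an unadjusted p under 0.05, beside 26.5%. In the other leave-one-out fits edgeR called 0 of the list. Without Control replicate 1 the unadjusted count was 4 of 35 (17.6% of all genes, with 0.131% called), without replicate 2 it was 2 of 35 (9.35%) and without replicate 3 it was 2 of 35 (9.29%), both with 0 genes called. It was 4 of 34 without clone 2 (14%, with 0.0133% called) and 3 of 34 without clone 3 (13.2%, with 0.00655% called). BIK and BAX were among these in all 6 fits.

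**Figure D1:**
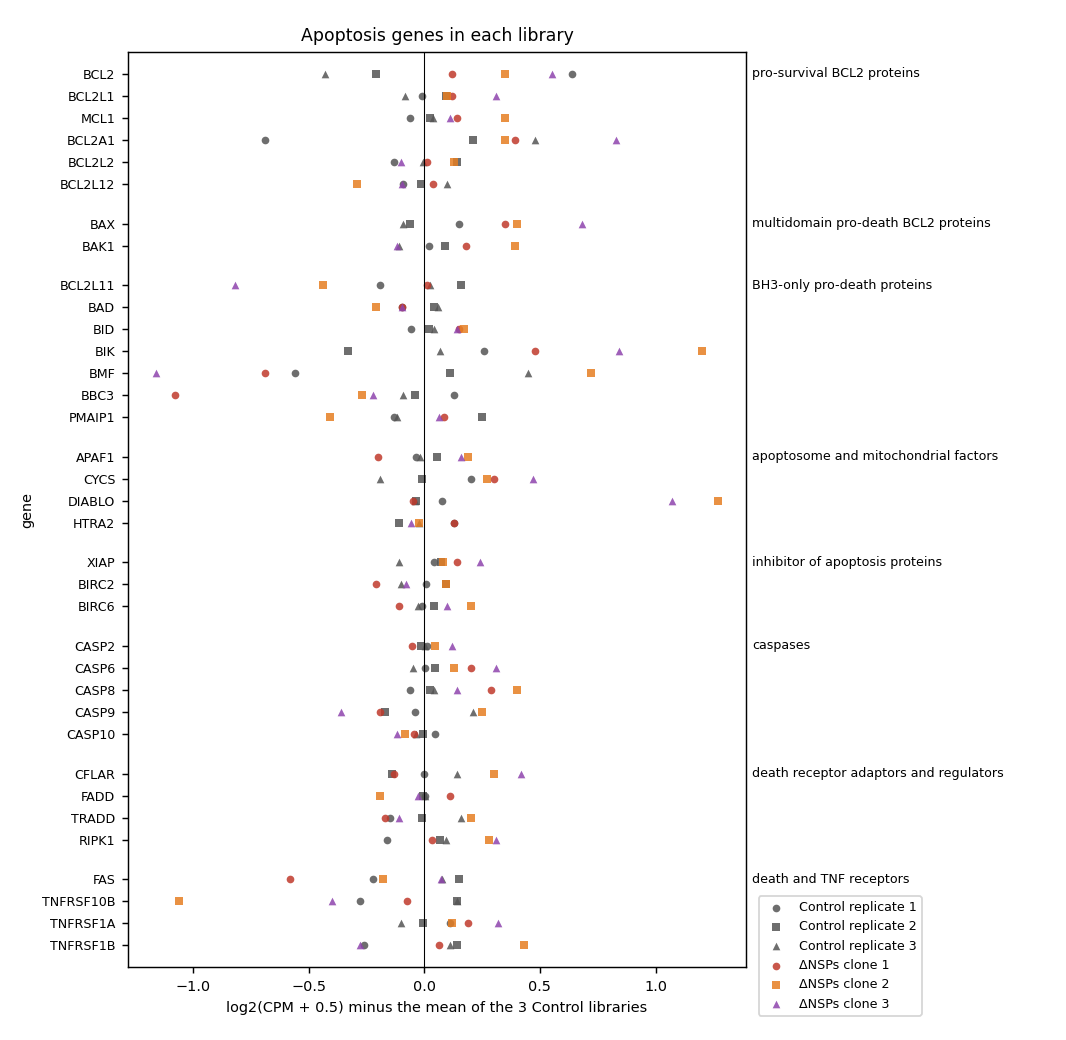
Level of each of the 35 genes in the 6 libraries, as log2(CPM + 0.5) minus the mean of the 3 Control libraries (x axis), grouped by role (y axis). Grey points are Control lines and coloured points ΔNSPs clones. BIK and BAX have all 3 clones to the right of every Control line, and BMF and BCL2 show the 6 libraries intermixed.

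Upstream sequences are shown for BAX and CYCS, from the 4 genes with an unadjusted p under 0.05. Of the others, BIK had no window in the RefSeq promoter table (GRCh38.p14) and CASP8 had 3. The table's windows hold 250 bases before the RefSeq gene start, which for both genes lies inside the gene as GENCODE gives it. The last 60 bases for BAX and the last 101 for CYCS therefore fall within the GENCODE gene and are left out. The remaining 190 bases for BAX are chr19:48954625-48954814 on the plus strand, and the remaining 149 for CYCS are chr7:25125362-25125510 on the minus strand, both 5′ to 3′. Capitals mark matches, on either strand, to the E-box (CACGTG), the CCAAT box and the core of the NRF1 motif (GCATGCGC). The GC box (GGGCGG) was also searched. The marked matches do not overlap, and the motifs were chosen after the sequences were seen.
BAX: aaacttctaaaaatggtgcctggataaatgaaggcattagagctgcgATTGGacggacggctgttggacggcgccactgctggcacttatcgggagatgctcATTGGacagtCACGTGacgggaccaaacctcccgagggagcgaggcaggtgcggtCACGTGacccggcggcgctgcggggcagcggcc
CYCS: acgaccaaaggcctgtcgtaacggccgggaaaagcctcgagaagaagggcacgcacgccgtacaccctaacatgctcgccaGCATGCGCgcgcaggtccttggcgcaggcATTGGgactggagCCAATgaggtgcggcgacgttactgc
The BAX bases held 2 E-boxes and 2 CCAAT boxes. Over the same stretch of all 35116 windows, 4.13% held an E-box and 0.273% held 2 or more. A CCAAT box was in 25.8%, with 2 or more in 6.24%. Among the 30 listed genes with a window, BBC3 and BID, the latter with 5 windows, had an E-box there as well. The CYCS bases held 1 NRF1 core and 2 CCAAT boxes. Over its stretch, 0.951% of all windows held the NRF1 core, a window of BIRC6 among them. A CCAAT box was in 18.7%, and 3.51% held 2 or more. The GC box was in neither sequence, and in 33% and 25.6% of all windows over the BAX and CYCS stretches. A match describes the letters and is not a site of binding.

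Among the pro-survival BCL2 genes, 0 of 6 passed a test in either tool, and 5 had a positive log2 fold change (median 0.19). MCL1, a short-lived guardian of mitochondria, was at 148, 157 and 159 CPM in Control replicates 1 to 3 and at 170.0, 197 and 167 CPM in clones 1 to 3. The groups did not overlap, and the log2 fold change was 0.20 (95% interval -0.038 to 0.44; edgeR adjusted p = 0.345). BCL2L1, which encodes BCL-XL, was at 74, 79.4 and 70.4 CPM in Control and 81.1, 79.7 and 92.5 CPM in ΔNSPs. Clone 2 was barely above the highest Control line, and the log2 fold change was 0.18 (SE 0.11; edgeR adjusted p = 0.405). Exons of genes on the other strand cover 43% of the exon length of BCL2L1, and with no strand setting given their reads cannot be told apart.

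The Control lines ranged widely for BCL2 and BCL2A1. BCL2, the founding member, was at 53.4, 29.5 and 25.1 CPM in Control replicates 1 to 3 and at 37.2, 43.4 and 50.3 CPM in clones 1 to 3. Control replicate 1 was the highest library of all, and clone 1 the lowest clone. The log2 fold change was 0.28 (SE 0.27; edgeR adjusted p = 0.617). It was 0.68 without Control replicate 1 (unadjusted p = 0.00563, adjusted p = 0.178). BCL2A1, an NF-kB target of blood cells, ran the other way: Control replicate 1 was its lowest library at 12.9 CPM, and the other Control lines had 24.6 and 29.7 CPM. The clones had 27.8, 27.1 and 38 CPM, within or above the range of those lines. Its log2 fold change was 0.47 (SE 0.29; edgeR adjusted p = 0.422). In that line BCL2A1 had 0.241 times the CPM of BCL2, against 0.625 to 1.18 times in the other 5 libraries.

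The length-scaled level divides CPM by the summed exon length over all annotated transcripts of a gene. It compares genes only roughly, since the transcripts expressed here may be shorter than that length. On this scale BCL2L12 had the highest mean of the role at 49.9 CPM per kb, although MCL1 exceeded it in clone 2 (45 against 42.3). BCL2L12, an atypical BCL2-like protein, was at 108, 114 and 123 CPM in Control and 118, 93.7 and 107 CPM in ΔNSPs, with overlapping groups (log2 fold change -0.11, SE 0.12). Other-strand exons cover 33.1% of its exon length. MCL1 stood at 38.1, BCL2A1 at 24.5 and BCL2L1 at 24 CPM per kb. BCL2L2 (3.52) and BCL2 (3.38) were lowest, and BCL2L2 differed little between groups (log2 fold change 0.012, SE 0.15). Same-strand exons, chiefly of BCL2L2-PABPN1, cover 19.4% of the exon length of BCL2L2, and how shared reads were counted is not given. Within the summed length-scaled level of BCL2, BCL2L1, MCL1, BCL2A1 and BCL2L2, MCL1 made up 40.2% to 44.7% in Control and 35.2% to 44.3% in ΔNSPs. BCL2A1 made up 15.6% in Control replicate 1 and 24.6% to 32.2% in the other libraries. The sum was 75.7, 88.9 and 90.5 CPM per kb in Control and 95.6, 101 and 109 in the clones. Every clone exceeded every Control line in this sum, which leaves out BCL2L12. BCL2L12 was at 48.6, 51.4 and 55.7 CPM per kb in Control and 53.2, 42.3 and 48.5 in clones 1 to 3. With BCL2L12 added, clone 2 lay below Control replicate 3.

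**Figure D2:**
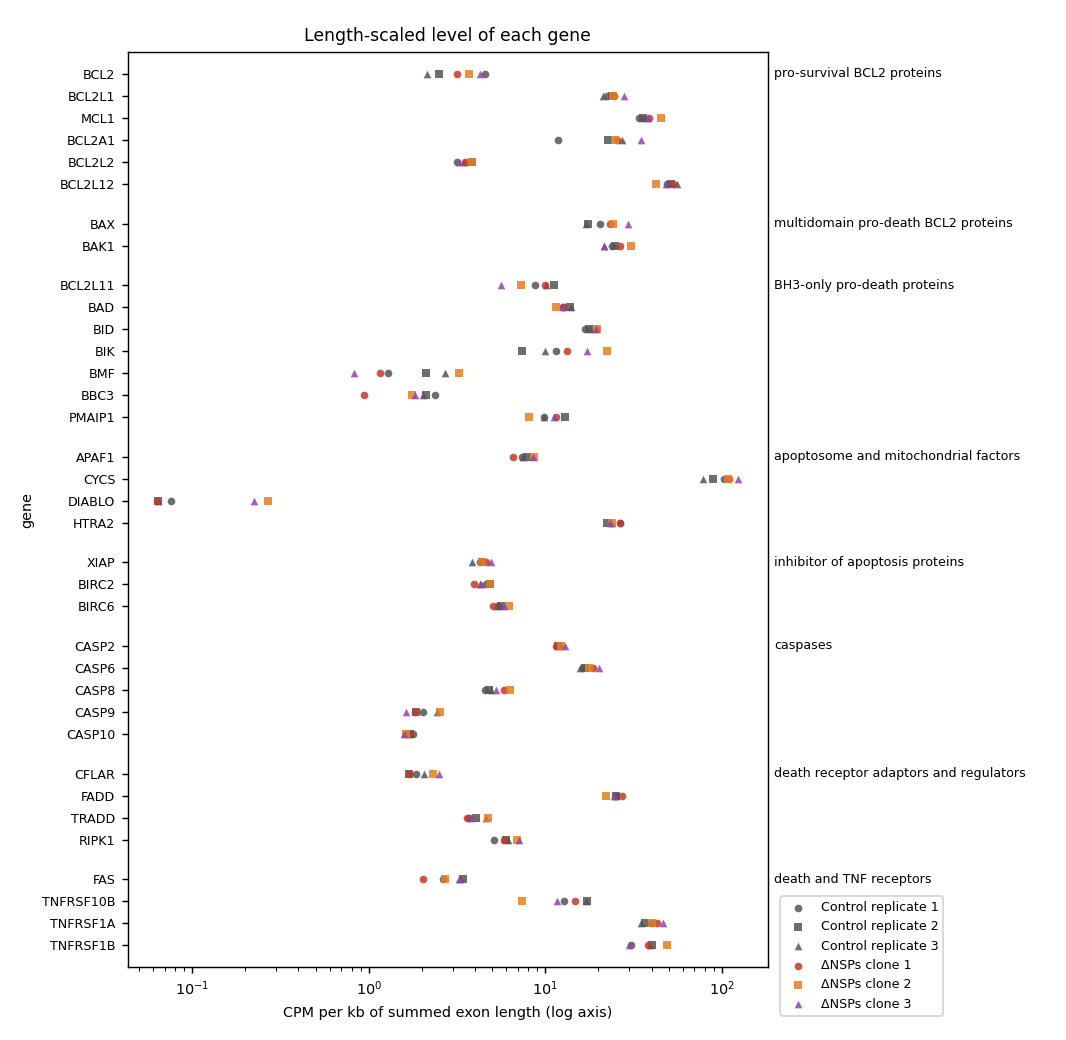
CPM per kb of summed exon length (log x axis) of each gene in the 6 libraries, by role. CYCS lies highest at 102 CPM per kb on average and DIABLO lowest at 0.127. Libraries of 1 gene span far less than the distance between these genes, but genes of similar level overlap. BCL2A1 runs from 11.8 to 34.9 CPM per kb, across the means of BAK1 (24.8) and FADD (24.9).

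BAX was higher in every clone than in any Control line. BAX (ENSG00000087088; GRCh38 chromosome 19, 48954815 to 48961798), which forms pores in the mitochondrial outer membrane, was at 52.5, 45.3 and 44.2 CPM in Control replicates 1 to 3 and at 60.4, 62.4 and 76.2 CPM in clones 1 to 3. The means were 47.3 ± 4.5 CPM and 66.3 ± 8.59 CPM (SD, n = 3 each), 1.4 times the Control level. The log2 fold change was 0.49 (SE 0.13; 95% interval 0.19 to 0.78). It missed the threshold in edgeR (adjusted p = 0.176; unadjusted 0.00531) and in DESeq2 (adjusted p = 0.0574), and passed with the first principal component as a covariate (adjusted p = 0.0492). It stayed between 0.38 and 0.57 when any 1 library was left out, with an unadjusted p under 0.05 each time. The other genes of its 20 Mb window had medians of 0.041, -0.11 and -0.077 in clones 1 to 3, against 0.35, 0.40 and 0.68 for BAX itself.

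BAK1, the other pore-forming member, had a higher mean length-scaled level than BAX (24.8 against 22 CPM per kb) and overlapped between groups. BAK1 was above BAX in 5 libraries, and in clone 3 BAX stood at 29.4 and BAK1 at 21.5 CPM per kb. It was at 52.6, 55.1 and 47.9 CPM in Control and 58.6, 67.9 and 47.6 CPM in ΔNSPs, with clone 3 the lowest library (log2 fold change 0.16, SE 0.14; edgeR adjusted p = 0.575). The CPM ratio of BAX to BCL2 was 0.982, 1.54 and 1.76 in the Control lines and 1.62, 1.44 and 1.52 in the clones. Control replicate 1 had the lowest ratio, and the clones lay between it and replicate 3.

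BIK showed the largest positive difference of the 34 genes. BIK (ENSG00000100290; chromosome 22, 43110748 to 43129712), a BH3-only protein that binds BCL-XL and BCL2, was at 10.9, 7.04 and 9.46 CPM in Control replicates 1 to 3, from 97 to 128 counts. Clones 1 to 3 had 12.7, 21.3 and 16.5 CPM, from 178 to 281 counts. Every clone lay above every Control line, and clone 1 lay closest to them. The means were 9.13 ± 1.96 and 16.8 ± 4.3 CPM, a ratio of 1.84. The log2 fold change was 0.88 (SE 0.25; 95% interval 0.32 to 1.45). BIK passed in DESeq2 (adjusted p = 0.033) and not in edgeR (adjusted p = 0.178; unadjusted 0.00696). In edgeR it passed with the first principal component as a covariate (adjusted p = 0.0332) and without clone 1 (0.0426, log2 fold change 1.05). Its fold change was 0.68 without clone 2, the lowest of the 6 leave-one-out values. Its window was near the Control level in the clones, with medians of -0.022, 0.032 and -0.027.

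**Figure D3:**
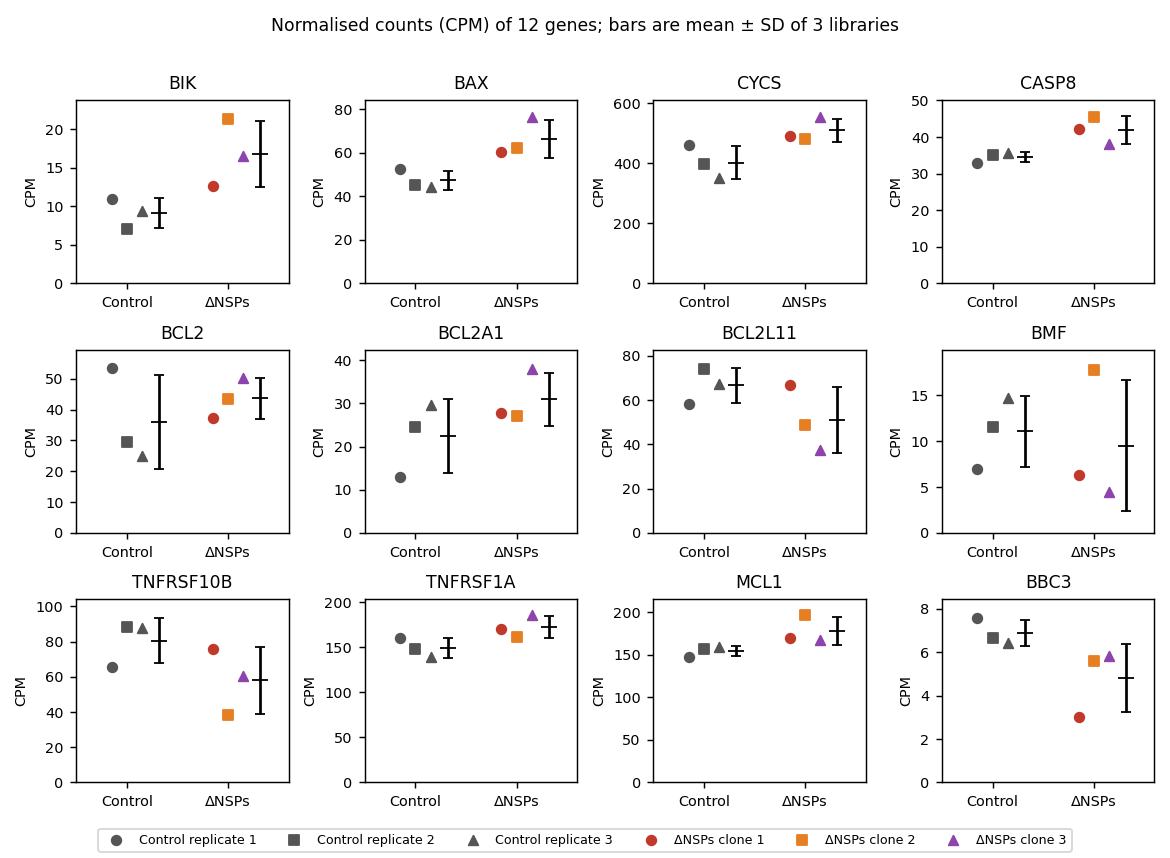
CPM (y axis, from 0) of 12 genes in Control and ΔNSPs, each point 1 library, with mean ± SD of 3 libraries at the side. BIK lies at 7.04 to 10.9 CPM in Control and 12.7 to 21.3 CPM in ΔNSPs with no overlap, while BCL2, BCL2A1 and BMF spread widely within a group.

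Of the 7 BH3-only genes, BIK alone had an unadjusted p under 0.05, 5 had a negative log2 fold change, and the median was -0.14. BID, which caspase 8 cleaves to link the receptor route to mitochondria, had the highest mean of the role at 18.5 CPM per kb, although BIK exceeded it in clone 2 (22.3 against 19.7). It was at 74.6, 78.6 and 79.9 CPM in Control and 86.4, 87.5 and 85.9 CPM in ΔNSPs, without overlap but with a small difference (log2 fold change 0.16, SE 0.09; edgeR adjusted p = 0.388). BIK was 11% to 18.2% of the summed length-scaled BH3-only level in Control and 19.3%, 30.2% and 25.2% in clones 1 to 3, while the sum itself ran from 63 to 67.2 CPM per kb in Control and from 68.8 to 74 in ΔNSPs.

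BCL2L11 and BMF differed between clones. BCL2L11, which encodes BIM, was at 58.2, 74.3 and 67.4 CPM in Control and at 66.8, 48.7 and 37.4 CPM in clones 1 to 3. Clone 1 lay inside the Control range and clones 2 and 3 below it (log2 fold change -0.38, SE 0.20; edgeR adjusted p = 0.357). Without clone 1 the log2 fold change was -0.64 (adjusted p = 0.0548). The 52 other expressed genes of its window on chromosome 2 had a median of -0.58 in clone 3, where BCL2L11 stood at -0.82, and of -0.0063 in clone 2, where it stood at -0.44. The part of that shift in the gene's level was not tested.

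BMF, a BH3-only protein tied to the cytoskeleton, had the widest range among the 34 genes, 3.97-fold. It was at 6.99, 11.5 and 14.7 CPM in Control and 6.35, 17.7 and 4.47 CPM in clones 1 to 3, so clone 2 was the highest library and clone 3 the lowest. The log2 fold change was -0.21 (SE 0.50) with all libraries and -1.02 without clone 2 (edgeR adjusted p = 0.313). In clone 2 the window of BMF on chromosome 15 had a median of 0.48 over 134 other genes, and BMF stood at 0.72 there. The window of BCL2A1, further along chromosome 15, was at 0.41 in the same clone. The part of these shifts in the levels of BMF and BCL2A1 was not tested.

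BBC3, which encodes PUMA, was lower in every clone, at 7.58, 6.67 and 6.42 CPM in Control and 3, 5.61 and 5.82 CPM in ΔNSPs. Clone 1 was far below the others (log2 fold change -0.52, SE 0.28; edgeR adjusted p = 0.367). PMAIP1, which encodes NOXA and neutralises MCL1, ran from 22 to 28.9 CPM in Control and from 18 to 25.6 CPM in ΔNSPs. BAD, a BH3-only protein regulated by phosphorylation, ran from 21.4 to 23.9 CPM and from 19.7 to 21.4 CPM. For neither gene was a difference detected (edgeR adjusted p = 0.836 and 0.574).

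CYCS was the most abundant gene of the list and higher in every clone. CYCS (ENSG00000172115; chromosome 7, 25120091 to 25125361), cytochrome c, was at 459, 397 and 351 CPM in Control replicates 1 to 3 and at 491, 482 and 554 CPM in clones 1 to 3. Control replicate 1 came closest to the clones. The means were 402 ± 54.5 and 509 ± 39.1 CPM, and the log2 fold change was 0.34 (SE 0.12; 95% interval 0.055 to 0.63; edgeR adjusted p = 0.228, DESeq2 adjusted p = 0.169). CYCS has processed pseudogenes of close sequence, so reads may be split among copies. APAF1, the scaffold of the apoptosome, was at 58.5 to 62.1 CPM in Control and 52 to 68.4 CPM in ΔNSPs, with all Control lines inside the range of the clones. HTRA2, a mitochondrial protease released beside cytochrome c, was at 67.3 to 80 CPM and 70.1 to 79.9 CPM (log2 fold change 0.017, SE 0.11), and other-strand exons cover 36.9% of its length.

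DIABLO, which encodes the IAP antagonist SMAC, had 6, 6 and 5 counts in Control and 6, 24 and 18 in clones 1 to 3, that is 0.434 to 0.511 CPM against 0.428 to 1.82 CPM. A further DIABLO record of the annotation lies on the same strand and shares 29.6% of its exon length, and how reads from shared exons were counted is not given in the sources used here. These counts are therefore uncertain as a level of SMAC transcripts. Clone 1 was at the Control level, and clones 2 and 3 were above it.

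The inhibitor of apoptosis genes showed no difference past either test. BIRC6, a very large ubiquitin ligase, led them in all 6 libraries, with a mean of 5.57 CPM per kb, with 96.2, 99.8 and 95.1 CPM in Control and 90.2, 112 and 104 CPM in ΔNSPs. Clone 1 lay below the Control range and clones 2 and 3 above it (log2 fold change 0.071, SE 0.11). XIAP, which binds and blocks caspases, did not overlap, at 34.6 to 39.4 CPM in Control and 39.6 to 44.4 CPM in ΔNSPs (log2 fold change 0.16, SE 0.11; edgeR adjusted p = 0.468). BIRC2, the ubiquitin ligase cIAP1, overlapped, at 19.3 to 22.1 CPM and 17.8 to 22.1 CPM.

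Among the 5 caspase genes, CASP8 had the largest difference. CASP8 (ENSG00000064012; chromosome 2, 201233443 to 201287711), the initiator of the receptor route, was at 33, 35 and 35.5 CPM in Control and at 42.3, 45.5 and 38 CPM in ΔNSPs. The Control lines were tightly grouped and clone 3 lay nearest to them. The log2 fold change was 0.28 (SE 0.11; 95% interval 0.025 to 0.54; edgeR adjusted p = 0.253, DESeq2 adjusted p = 0.304). Its unadjusted p was under 0.05 in 1 of the 6 leave-one-out fits. CASP10, the neighbouring initiator gene, went the other way by a small amount, at 12.8 to 13.6 CPM in Control and 12.1 to 12.8 CPM in ΔNSPs (log2 fold change -0.084, SE 0.14). CFLAR, the third gene of that locus, encodes the inhibitor FLIP. It overlapped between groups, at 42, 38.2 and 46.3 CPM in Control and 38.3, 52 and 56.3 CPM in clones 1 to 3 (log2 fold change 0.21, SE 0.16; edgeR adjusted p = 0.51).

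CASP6, an executioner caspase, led the role in all 6 libraries, with a mean of 17.5 CPM per kb. It was at 31.6, 32.6 and 30.5 CPM in Control and 36.2, 34.6 and 39.1 CPM in ΔNSPs, without overlap (log2 fold change 0.21, SE 0.11; edgeR adjusted p = 0.326). CASP2, an initiator linked to the PIDDosome, was at 94.4 to 96 CPM in Control and 91.9 to 104 CPM in ΔNSPs. The 95% interval of its log2 difference was -0.18 to 0.26. CASP9, the caspase of the apoptosome, ran from 9.79 to 12.8 CPM in Control and from 8.52 to 13.3 CPM in ΔNSPs.

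**Figure D4:**
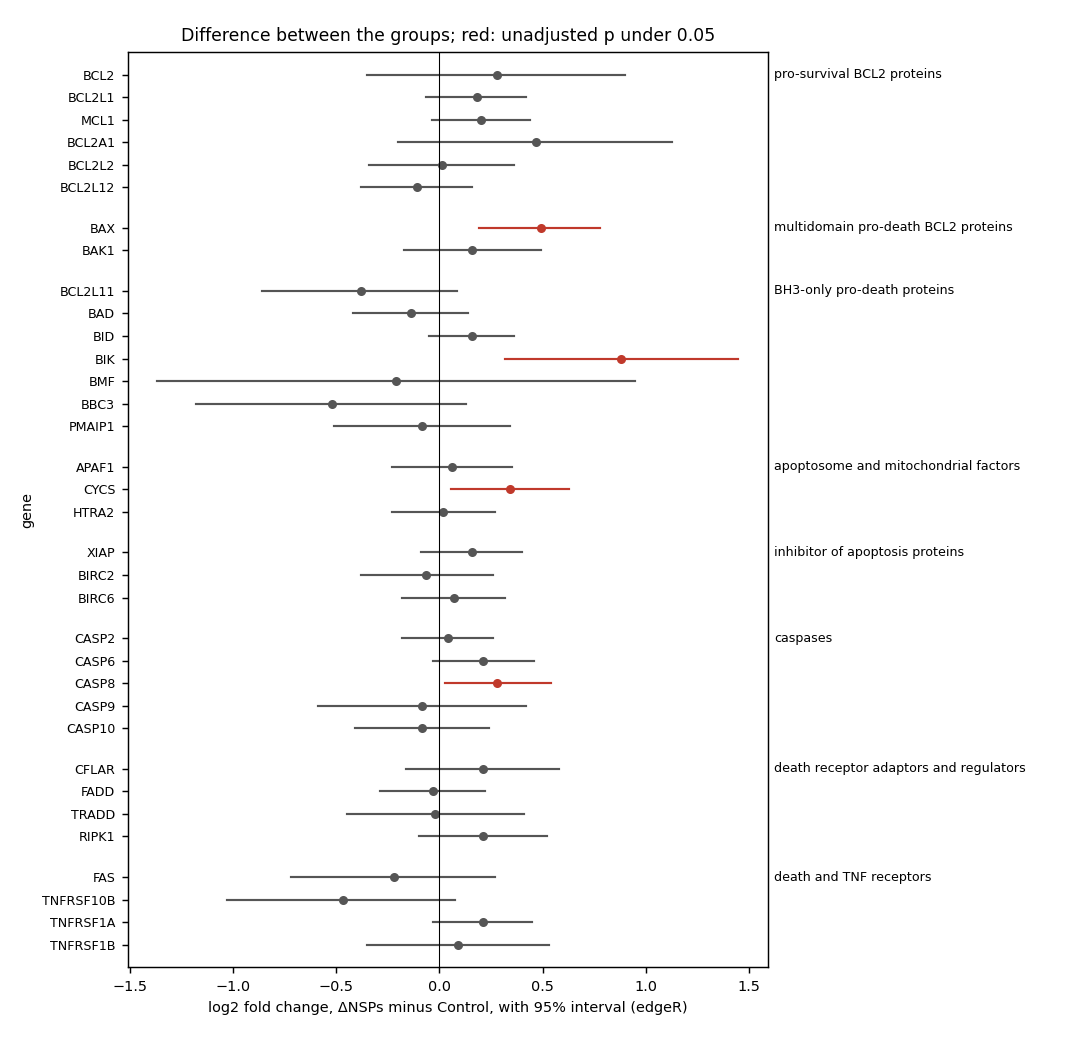
log2 fold change (x axis, ΔNSPs minus Control) of the 34 tested genes with the 95% interval from edgeR, grouped by role. The intervals of BAX, BIK, CYCS and CASP8, in red, exclude 0 before adjustment, and the widest belongs to BMF.

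In the receptor route, 0 of 8 genes passed a test, 4 had a positive and 4 a negative log2 fold change, and the median was 0.034. TNFRSF1A, the ubiquitous TNF receptor with a death domain, had the highest mean of the receptors at 40.2 CPM per kb, although TNFRSF1B exceeded it in Control replicates 2 and 3 and in clone 2. It was at 161, 148 and 139 CPM in Control and 171, 162 and 186 CPM in ΔNSPs, without overlap, though clone 2 lay just above Control replicate 1 (log2 fold change 0.21, SE 0.10; edgeR adjusted p = 0.329). TNFRSF1B, the TNF receptor without a death domain, had a mean of 37.9 CPM per kb and varied among clones, with 115, 152 and 148 CPM in Control and 143, 185 and 113 CPM in clones 1 to 3 (log2 fold change 0.091, SE 0.19). FAS was low, at 11.2, 14.6 and 13.9 CPM in Control and 8.64, 11.5 and 13.8 CPM in ΔNSPs, with clone 1 the lowest library (edgeR adjusted p = 0.612).

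TNFRSF10B was lowest in clones 2 and 3. This TRAIL receptor gene, on chromosome 8, was at 65.7, 88.4 and 87.8 CPM in Control replicates 1 to 3 and at 75.7, 38.1 and 60.2 CPM in clones 1 to 3. Clone 1 fell between the Control lines, and clones 2 and 3 were below all of them. The log2 fold change was -0.47 (SE 0.24; edgeR adjusted p = 0.337), and -0.24 without clone 2. Its window of 78 other genes had a median of -0.48 in clone 2, where TNFRSF10B stood at -1.06. In clone 3 the window was at -0.078 and the gene at -0.40. How much the window shift adds to the low level was not tested. TNFRSF1A had 1.58 to 2.45 times the CPM of TNFRSF10B in Control and 2.25, 4.25 and 3.09 times in clones 1 to 3.

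**Figure D5:**
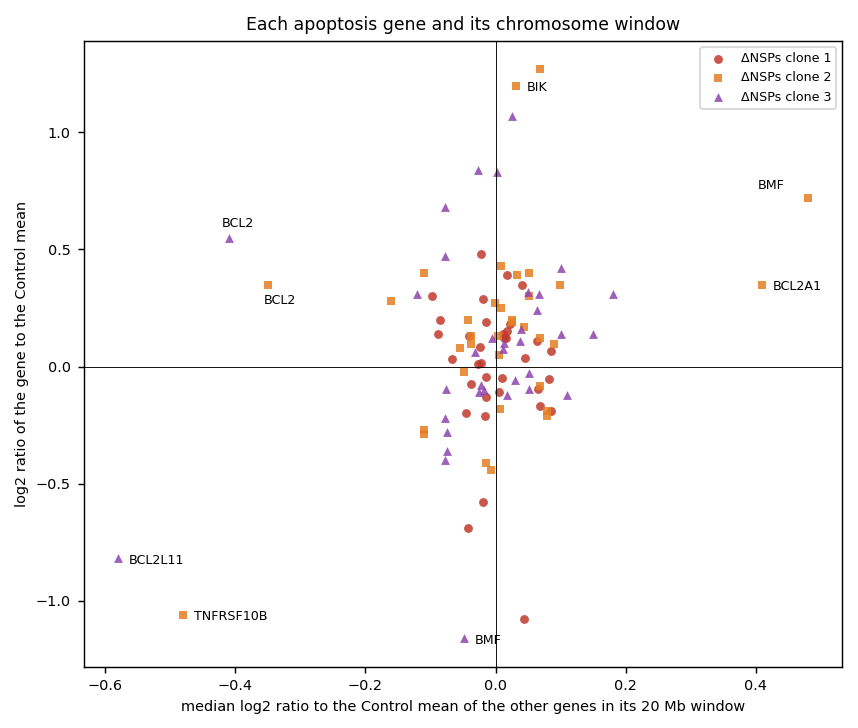
log2 ratio of each gene to the Control mean (y axis) against the median log2 ratio of the other expressed genes in its 20 Mb window (x axis), 1 point per gene and clone. TNFRSF10B in clone 2 and BCL2L11 in clone 3 lie low on both axes, BMF in clone 2 high on both, and BCL2 in clones 2 and 3 high in windows that are low.

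BCL2 itself did not share the direction of its window. The 25 other genes around it on chromosome 18 had medians of -0.35 and -0.41 in clones 2 and 3, where BCL2 stood at 0.35 and 0.55 above the Control mean. In Control replicate 1 BCL2 stood at 0.64 with its window at -0.096.

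For the adaptors FADD and TRADD and the kinase RIPK1, no difference passed a test. FADD, the adaptor of FAS and the TRAIL receptors, led the role in all 6 libraries, with a mean of 24.9 CPM per kb, and had 46.4, 46.1 and 46.4 CPM in Control and 49.9, 40.5 and 45.4 CPM in ΔNSPs. The clones scattered on both sides of the Control lines (log2 fold change -0.032, SE 0.11; edgeR adjusted p = 0.9), and other-strand exons cover 54.9% of its length. TRADD, the adaptor of TNFRSF1A, ran from 9.46 to 11.8 CPM and from 9.28 to 12.2 CPM. RIPK1, the kinase that passes the signal on to survival or death, ran from 21.6 to 25.9 CPM and from 24.8 to 30.2 CPM (log2 fold change 0.21, SE 0.14; edgeR adjusted p = 0.439).

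Other genes of these pathways were taken from 5 lists, whose counts stand beside 17.8% of all tested genes at an unadjusted p under 0.05 (9.23% higher, 8.6% lower) and 7358 of 14797 with a negative log2 fold change. Among other caspases and nuclease factors, 0 of 8 tested passed in edgeR, and CASP1, the inflammatory caspase, was the 1 gene at an unadjusted p under 0.05, with 10.6 ± 1.82 CPM in Control and 15.5 ± 1.97 CPM in ΔNSPs (SD, n = 3; edgeR adjusted p = 0.212). Among other BCL2-related genes, 0 of 13 passed in edgeR. BNIP3, a mitophagy receptor that hypoxia induces, fell in DESeq2 (adjusted p = 0.00287) from 83.8 ± 20.5 to 36.9 ± 13.2 CPM. Among other inhibitor of apoptosis genes, 0 of 3 passed in edgeR. BIRC3, the NF-kB target cIAP2, was lower in DESeq2 (adjusted p = 0.0394), but the Control lines had 0.767, 8.05 and 8.59 CPM and the clones 0.642 to 1.77 CPM, so the groups overlapped.

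Among death ligands, other receptors and complex components, 0 of 22 passed in edgeR or DESeq2, and 4 had p under 0.05 before adjustment (2 higher, 2 lower). MLKL, the pore former of necroptosis, was at 30.3 to 34.6 CPM in Control and 40.3 to 41.2 CPM in ΔNSPs (log2 fold change 0.35, SE 0.10; edgeR adjusted p = 0.186). The log2 difference was 0.30 (SE 0.099) for PEA15, a death effector domain protein, and -0.33 (SE 0.12) for TAB1, a partner of the kinase TAK1. TNFAIP3, the ubiquitin editor A20, had 10.3, 41.2 and 39.9 CPM in the Control lines and 6.82 to 12.3 CPM in the clones, so its groups overlapped too.

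Among p53 target genes, 0 of 19 passed in edgeR, 5 had p under 0.05 before adjustment (2 higher, 3 lower), 15 had a negative log2 fold change, and the median was -0.17. The genes that differed did not share a direction. CCNG1, cyclin G1, fell in DESeq2 (adjusted p = 0.0081) from 145 ± 2.04 to 103 ± 9.5 CPM, and AEN, an apoptosis-enhancing nuclease, rose in DESeq2 (adjusted p = 0.0457) from 36.3 ± 7.03 to 58.4 ± 13.9 CPM. The log2 difference was -0.38 (SE 0.11) for XPC, a DNA repair factor, and 0.57 (SE 0.22) for PLK3, a stress kinase. BAX, BBC3, PMAIP1, FAS and TNFRSF10B are p53 targets as well, and of these BAX was higher in every clone, BBC3 lower in every clone, and the other 3 overlapped between the groups.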

How the data were processed

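The deposited file, made by the authors, holds unnormalized read counts by Ensembl gene for all 6 libraries. The submitters' processing notes name FastQC, HISAT2 (2.0.0), SAMtools (1.5.9), HTSeq (0.11.1) and the GRCh38.p12 build. No source used here gives the annotation release, strand setting or filters; the lowest summed count of a gene was 10. Symbols and exon lengths came from GENCODE release 29, which matched 18771 of 18798 genes. The whole table was fitted with edgeR 4.0.16 in R 4.3.3 (TMM, filterByExpr, two-sided quasi-likelihood test), with Benjamini-Hochberg adjustment over 14797 genes and a threshold of 0.05. CPM are counts over the TMM-scaled total of tested genes. Each SE is the log2 fold change over the square root of F. DESeq2 1.42.0 and limma 3.58.1 voom were alternatives, and the fits were tested on simulated data. Windows of 20 Mb used genes averaging 8 CPM or more, at least 20 per window, and a pseudocount of 0.5 CPM. The Control lines and clones are separate lines, and p-values measure the spread between them. Only the ΔNSPs lines are described as clones, so a p-value cannot tell the depletion apart from cloning.

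The genes and lists were chosen with earlier results of these data known. Values in every library are given for genes with an unadjusted edgeR p under 0.05, for DESeq2 calls and for the gene of each role with the highest length-scaled level. Other genes shown by library were chosen after their values were seen. From each pathway list, at most 4 genes with an unadjusted p under 0.05 or a DESeq2 call are named, by smallest p; 1 gene of these lists is not reported here.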

Additional observations from a re-analysis of the deposited data

How the results depend on the processing

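Over all genes, edgeR called 3; DESeq2 called 515, limma voom 1, robust dispersions 1, and the first principal component as a covariate 801. Of the listed genes, edgeR called 0 (4 at an unadjusted p under 0.05), DESeq2 1 (BIK), and the covariate fit 2 (BIK and BAX) with 7 at an unadjusted p under 0.05. With the replicate number as a block, edgeR called 0 genes in all (1779 at an unadjusted p under 0.05) and 0 of the list, with 2 of the list at an unadjusted p under 0.05. Deviations of same-numbered libraries correlated at -0.43, -0.16 and -0.14, and 0 of 6 libraries correlated best with their own number. Leaving out 1 library at a time gave 0 to 928 genes in all, 0 to 1 of the list, and 2 to 7 of the list at an unadjusted p under 0.05; the 928 and the 7 came without ΔNSPs clone 1, and 0 genes came without Control replicate 2 or 3 (1408 and 1413 at an unadjusted p under 0.05).

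Of 544 alternative values for single genes, 518 kept their direction and call, 4 gained a call (BIK in 3 fits and BAX in 1) and 22 changed sign, in 11 genes that no fit called. BCL2L2 was at -0.003 with upper-quartile factors and -0.0029 with library totals. Leaving out 1 library moved log2 fold changes across 0 for BCL2L2 (-0.055 to 0.083), BMF (-1.02 to 0.12), PMAIP1 (-0.18 to 0.063), APAF1 (-0.0067 to 0.17), HTRA2 (-0.05 to 0.087), BIRC2 (-0.15 to 0.0011), CASP2 (-0.00043 to 0.078), CASP9 (-0.29 to 0.043), FADD (-0.12 to 0.043), TRADD (-0.15 to 0.061) and TNFRSF1B (-0.11 to 0.25). The cause was not tested. DIABLO had only 5 to 24 counts, and how reads from its shared exons were counted is not given.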
